A study of Mus musculus with 6 samples.

Results

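The circadian clock genes described here are Per1, Per2, Per3, Arntl, Clock, Cry1, Cry2, Nr1d1, Nr1d2 and Dbp, chosen by their symbols. All 10 are among the 14484 genes of the deposited count table. RNA sequencing was done on skin from 6 mouse samples on a C57BL/6-129J background. The 3 ATR WT samples had the genotype ATR +/+, Braf CA/+ and Cre +, and the 3 ATR mD/mD samples had ATR fl/fl, Braf CA/+ and Cre +, which removes part of the kinase domain of ATR. Both groups therefore carried the Braf CA allele and Cre, and nevi is the word used for them in the series design. The labels name neither the promoter that drives Cre, nor the age of the mice, nor the hour at which skin was taken. Separate animals are not named for the replicates, so the p-values speak of the spread among these libraries only. In bulk skin, fewer cells of a type and less RNA per cell cannot be told apart.

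Libraries held between 34723600 and 46847751 gene counts. Levels are given as CPM, read counts scaled to a common library size with TMM factors, and values of a group are listed in the order of replicates 1, 2 and 3. The libraries stood apart in hair genes, and not by genotype. The mean of 24 hair follicle and hair shaft genes was 7.37, 7.50 and 7.59 log2 CPM in the libraries ATR WT 2 and 3 and ATR mD/mD 3, called hair-rich below. In ATR WT 1 it was 1.91 and in ATR mD/mD 1 and 2 it was -0.51 and 2.19, and these are called hair-poor. Skin and pigment cell markers were measured in every library: 4 keratinocyte genes summed to between 9587 and 15599 CPM and 6 melanocyte genes to between 97.8 and 808 CPM. Xist RNA, made from an inactive X chromosome, had 18050 to 29207 counts in 3 libraries (ATR WT 2 and 3 and ATR mD/mD 1) and 23 to 40 counts in the other libraries.

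The clock is a transcriptional feedback loop that runs with a daily period in nearly all cells. The proteins of Arntl (also called BMAL1) and Clock pair up and bind E-box sequences, which drives the Per and Cry genes, and the PER and CRY proteins then inhibit that pair. The same pair drives Nr1d1 and Nr1d2, which encode the REV-ERB receptors, and these repress Arntl through ROR elements. Dbp is a direct output of the loop and encodes an activator that binds D-box sequences, where the repressor encoded by Nfil3 competes with it. Because of this wiring, Arntl transcripts are known to peak at about the opposite time of day from Dbp, Nr1d1 and the Per genes. In skin, the clock is known to run in epidermis, dermis and hair follicle, and clock genes have been linked to the start of hair growth.

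Promoter sequences are shown for 5 members whose upstream windows hold E-box or D-box letters, since these elements tie the members to one another. RefSeq promoters (build GRCm38.p6, 250 bases before to 50 after each start) were found for 9 of the 10 genes, all but Per2. Each line below is 5′ to 3′ on the strand of the gene and lies upstream of the start, with 25 bases on either side of the outer motifs where the upstream window allowed it, and capitals mark the motifs. In the Per1 stretch (chr11:69098758-69098842, plus strand) the capitals are an E-box, CACGTG, and TGACCT, the reverse complement of the nuclear receptor half-site AGGTCA. In Per3 (chr4:151044791-151044895, minus strand) they are 2 copies of a D-box, TTATGTAA. In Cry1 (chr10:85185084-85185158, minus strand) they are AACGTG, the reverse complement of the E-box variant CACGTT, and an E-box. In Cry2 (chr2:92434205-92434260, minus strand) and Nr1d1 (chr11:98775378-98775430, minus strand) they are the same E-box variant.
Per1: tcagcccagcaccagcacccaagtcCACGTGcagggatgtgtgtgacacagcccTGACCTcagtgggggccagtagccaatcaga
Per3: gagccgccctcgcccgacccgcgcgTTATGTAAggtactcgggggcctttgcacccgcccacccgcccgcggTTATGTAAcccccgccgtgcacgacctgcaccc
Cry1: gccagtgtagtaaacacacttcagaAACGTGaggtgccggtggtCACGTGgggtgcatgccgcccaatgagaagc
Cry2: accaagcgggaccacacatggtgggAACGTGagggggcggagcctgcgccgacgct
Nr1d1: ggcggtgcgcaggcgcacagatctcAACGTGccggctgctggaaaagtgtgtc

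Both strands were searched. The E-box was present in 7.15% of all 32851 promoters in the table, its variant CACGTT in 4.68%, the D-box in 0.938% and the half-site in 16.3%. The E-box began 166 bases before the start in Per1 and 60 bases before it in Cry1. The D-boxes of Per3 began 205 and 158 bases before the start. The variant D-box TTATGCAA, held by 0.743% of promoters, was found in Per1 alone among the members. The cAMP response element TGACGTCA, held by 1.79%, was found in none of the 9. The half-site was also found upstream of Nr1d2 and Clock, and in Arntl within the 50 bases after the start. In all, 4 of the 9 members held it, beside 16.3% of all promoters. No searched motif was found in the Dbp window. None of the searched motifs overlapped another in the stretches shown. A match describes letters in this window and is not evidence of binding.

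No clock gene differed between the genotypes beyond the spread of the libraries. Of the 10 genes, 7 had log2 fold changes above 0 in ATR mD/mD against ATR WT and 3 below, with a median of 0.09, against 0.01 over all genes. In edgeR's quasi-likelihood test, 0 of 10 passed an adjusted p under 0.05, where 0.0483% of all genes did. At an unadjusted p under 0.05 the count was also 0, where 1.66% of all genes passed. DESeq2 and limma-voom gave 0 at both thresholds as well. The smallest unadjusted p was 0.183, for Per1, and the adjusted p of every member was 0.9999 (edgeR). In the authors' deposited table the adjusted p of each of the 10 genes is 1. The edgeR fold changes ran from -0.12 to 0.39, while their 95% intervals differed much in width. That of Clock ran from -0.29 to 0.22 and that of Dbp from -1.15 to 1.26, so a doubling of Dbp lies within its interval.

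**Figure D1:**
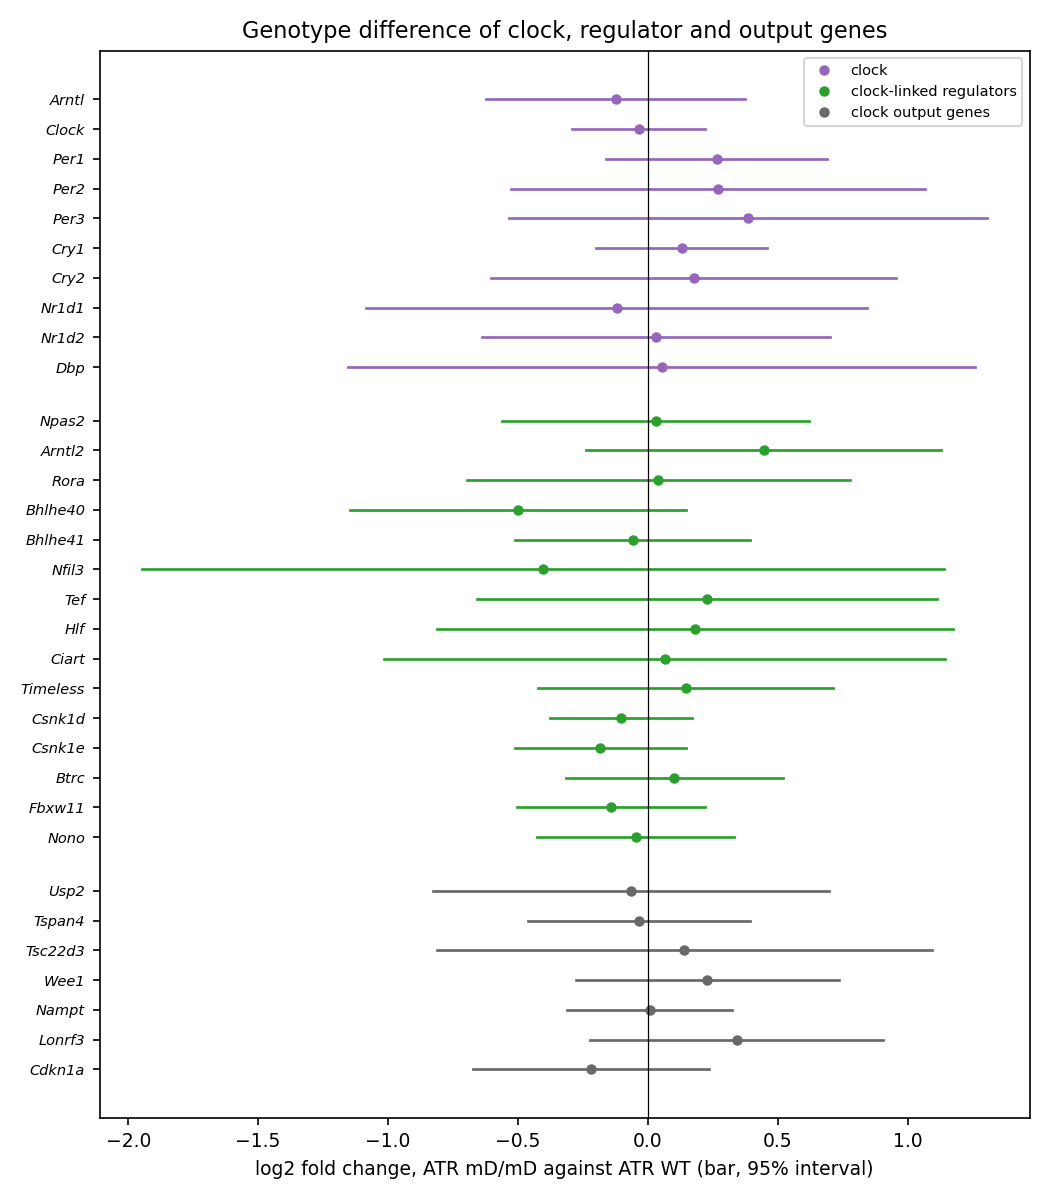
Log2 fold change of ATR mD/mD against ATR WT (x axis) for each clock gene, clock-linked regulator and clock output gene (y axis), with 3 libraries per group; points are edgeR estimates and bars their 95% intervals. Every bar crosses 0, and the bars of Nfil3, Dbp and Ciart are among the longest while those of Clock and Csnk1d are short.

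Of the 2 activator genes, Clock varied least of the 10 members over the libraries and Arntl varied more. Clock (chromosome 5, 76209868 to 76304792, minus strand, mm10) measured 43.8, 43.0 and 46.4 CPM in the ATR WT libraries, against 43.3, 44.8 and 41.8 CPM in the ATR mD/mD libraries. The highest library was 1.11 times the lowest, and only 0.573% of all genes had a smaller SD of log2 CPM over the 6 libraries. Its log2 fold change was -0.03 (SE 0.107). Arntl (chromosome 7, 113207465 to 113314126, plus strand) had values of 13.2, 16.3 and 19.9 CPM in the ATR WT libraries, against 14.9, 13.0 and 17.4 CPM in the ATR mD/mD libraries. Its 3 highest values were those of the hair-rich libraries, which did not overlap with the hair-poor ones. Between the genotypes the values overlapped, with means of 16.5 ± 3.39 and 15.1 ± 2.20 CPM (SD, n = 3) and a log2 fold change of -0.12 (SE 0.207). Without ATR WT 3 the fold change was 0.03.

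The Per genes, which encode the PERIOD repressors, lay higher in hair-poor than in hair-rich libraries in all 3 cases. Per3 (chromosome 4, 151003652 to 151044665, minus strand) had values of 95.7, 77.0 and 66.2 CPM in the ATR WT libraries, against 127, 136 and 48.8 CPM in the ATR mD/mD libraries. The ATR mD/mD group held both the highest and the lowest libraries, which differed 2.78-fold. Its log2 fold change of 0.39 (SE 0.384) was the largest of the members, and it was 0.725 without ATR mD/mD 3 (unadjusted p = 0.0079, adjusted p = 0.708, edgeR), or 0.15 when ATR mD/mD 2 was the library left out. Per2 (chromosome 1, 91415982 to 91459324, minus strand) showed the same shape, with 24.7, 21.3 and 23.7 CPM in the ATR WT libraries, against 35.0, 34.5 and 14.5 CPM in the ATR mD/mD libraries. The 3 ATR WT libraries lay close together, and the ATR mD/mD libraries lay on both sides of them. The log2 fold change of Per2 was 0.27 (SE 0.332), and 0.58 without ATR mD/mD 3 (unadjusted p = 0.00427, adjusted p = 0.708, edgeR). ATR mD/mD 3 is the only hair-rich library of its group. Without it, hair-poor ATR mD/mD libraries are compared with ATR WT libraries of both hair levels. Genotype and hair level are then mixed for Per2 and Per3.

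Per1 (chromosome 11, 69095217 to 69109960, plus strand) varied less, between 105 and 159.9 CPM. It measured 143, 108 and 105 CPM in the ATR WT libraries, against 144, 159.9 and 124 CPM in the ATR mD/mD libraries, with means of 119 ± 21.2 and 142 ± 18.0 CPM (SD, n = 3). ATR WT 1 lay among the ATR mD/mD values and the other ATR WT libraries below them. The log2 fold change was 0.26 (SE 0.177), with a range of 0.17 to 0.44 when 1 library was left out.

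Cry1 and Cry2, which encode the CRYPTOCHROME repressors, behaved differently from each other across libraries. Cry1 (chromosome 10, 85131700 to 85185064, minus strand) had values of 14.3, 13.1 and 15.0 CPM in the ATR WT libraries, against 15.9, 15.5 and 15.1 CPM in the ATR mD/mD libraries. It was the 1 member of 10 in which the genotypes did not overlap, with ATR mD/mD higher. Such a separation in that direction was found in 2.26% of all genes, and in the other direction, seen in 0 of 10 members, in 2.58%. The gap between the groups was small, and the log2 fold change of 0.13 (SE 0.138) had an unadjusted p of 0.378 (edgeR). Cry2 (chromosome 2, 92403646 to 92434043, minus strand) had values of 100.3, 63.5 and 55.7 CPM in the ATR WT libraries, against 92.6, 103 and 52.0 CPM in the ATR mD/mD libraries. Its hair-poor libraries all lay at 92.6 CPM or above and its hair-rich libraries at 63.5 CPM or below. The log2 fold change was 0.18 (SE 0.325), and -0.02 without ATR mD/mD 2.

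Nr1d1 and Nr1d2 encode the REV-ERB repressors, and Nr1d1 had the highest median level per length of the members. Over its exons, this median was 62.0 CPM per kilobase, followed by Nr1d2 with 27.6, Dbp with 23.8 and Per1 with 23.7. Arntl was the lowest with 2.07, next to Clock with 3.17, Per2 with 4.13 and Cry1 with 4.51. The ranges over the 6 libraries of Nr1d2, Dbp and Per1 overlapped, so their order is not resolved, whereas the range of Arntl (1.73 to 2.65) lay below that of Clock (3.05 to 3.38). Nr1d1 (chromosome 11, 98767932 to 98775333, minus strand) had values of 306, 179 and 130.3 CPM in the ATR WT libraries, against 202, 252 and 113 CPM in the ATR mD/mD libraries. The log2 fold change of Nr1d1 was -0.12 (SE 0.402) and it turned to 0.30 without ATR WT 1, the library with its highest value. Nr1d2 (chromosome 14, 18204054 to 18239127, minus strand) had values of 156, 126 and 143 CPM in the ATR WT libraries, against 166, 180.4 and 87.2 CPM in the ATR mD/mD libraries. Its log2 fold change was 0.03 (SE 0.28), and 0.29 without ATR mD/mD 3, in which it was lowest.

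Dbp (chromosome 7, 45705088 to 45710203, plus strand) had the widest spread of the members. It measured 114, 60.8 and 49.3 CPM in the ATR WT libraries, against 81.7, 117 and 33.3 CPM in the ATR mD/mD libraries, a 3.52-fold range. Of all genes, 91.3% had a smaller SD of log2 CPM over the 6 libraries, against 86.3% for Per3, 85.4% for Nr1d1, 81.0% for Per2, 79.3% for Cry2, 72.1% for Nr1d2, 48.3% for Per1, 46.5% for Arntl and 6.68% for Cry1. The group means of Dbp were 74.7 ± 34.5 and 77.4 ± 42.2 CPM (SD, n = 3) and the log2 fold change was 0.05 (SE 0.503). The sign of that fold change rested on single libraries, with -0.38 without ATR mD/mD 2 and 0.51 without ATR WT 1. The library kit does not mark the strand, and exons of Dbp share 539 bases with Sphk2 and those of Nr1d1 share 263 bases with Thra. Those of Cry2 share 295 bases with D930015M05Rik and those of Arntl 33 bases with Gm45355, which are not in the count table. All of these partners lie on the opposite strand, so reads of these stretches cannot be assigned to 1 gene.

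**Figure D2:**
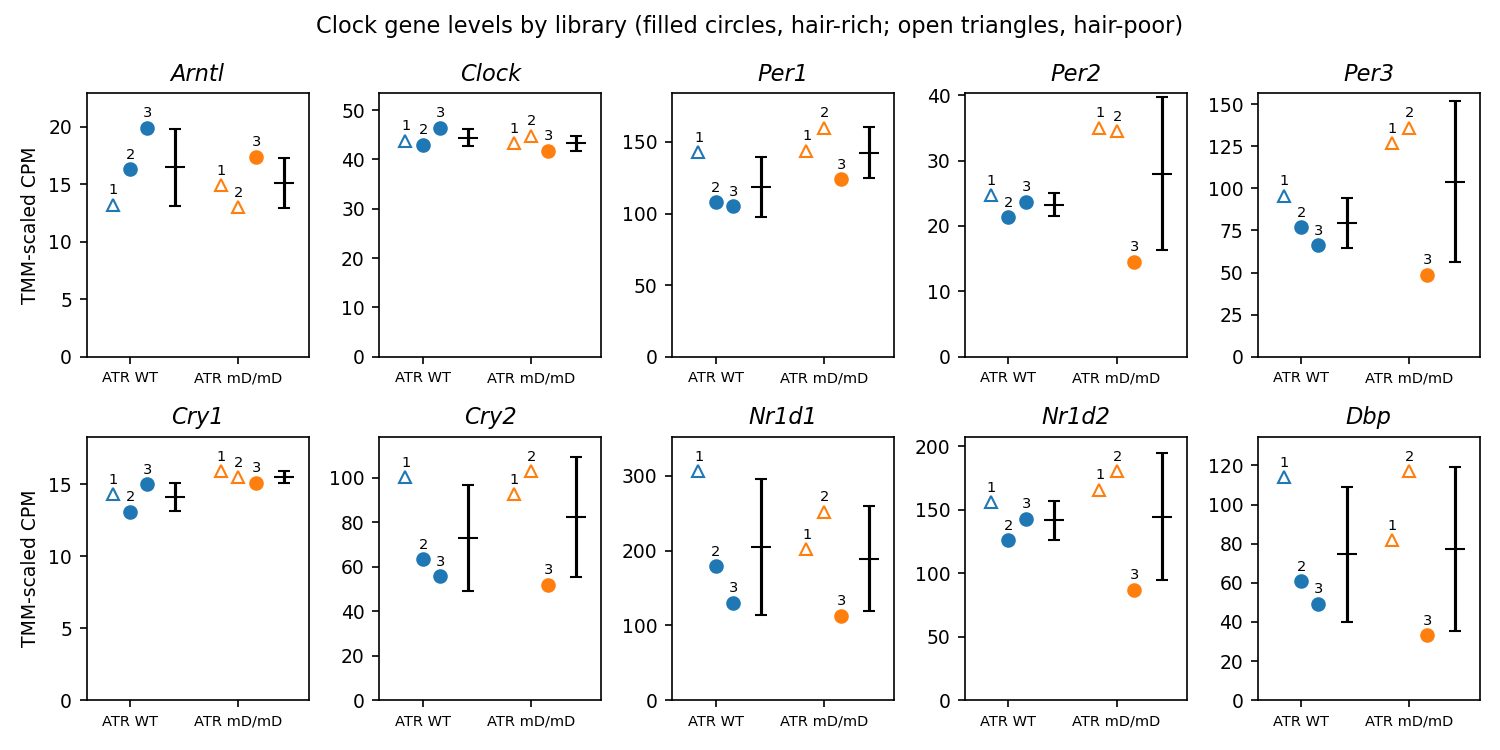
TMM-scaled CPM (y axis, from 0) of each clock gene in the 3 ATR WT and 3 ATR mD/mD libraries (x axis), numbered by replicate; black bars are the mean and SD of each group. Filled circles (hair-rich) lie below open triangles (hair-poor) in the 3 Per genes, Cry2, both Nr1d genes and Dbp, and above them in Arntl.

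Most members split by hair gene level and not by genotype, while the opposite limb of a phase-like contrast was seen in Arntl alone. In 7 of the 10 members (Per1, Per2, Per3, Cry2, Nr1d1, Nr1d2 and Dbp), every hair-rich library was lower than every hair-poor one, a pattern found in 17.1% of all genes. In 1 member, Arntl, every hair-rich library was higher, a pattern found in 19.6% of all genes. The highest library of Arntl was 1.53 times its lowest, against a median of 1.6 over all genes, so this limb does not stand out from the background. Clock and Cry1 overlapped. These are descriptions of 6 libraries ordered by a level measured in them, and no test was made.

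The split into hair-poor and hair-rich libraries was shared by the 7 genes, while the order within each set differed from gene to gene. ATR mD/mD 3 was the lowest library for 7 of the 10 members, and for 5 of the 6 genes Per1, Per2, Per3, Nr1d1, Nr1d2 and Dbp. ATR mD/mD 2 was the highest library for 5 members, 4 of them among these 6 genes. The 3 hair-poor libraries (ATR WT 1, then ATR mD/mD 1 and 2) held the top 3 places in each of the 6. The mean of the 6 genes, as log2 CPM less each gene's mean over the libraries, was 0.32, 0.31 and 0.50 in those libraries in that order. The hair-rich libraries ATR WT 2 and 3 had -0.17 and -0.28, and the lowest, ATR mD/mD 3, had -0.68. The same mean over Arntl, Clock and Cry1 stayed between -0.10 and 0.15, with its lowest value in ATR WT 1 and its highest in ATR WT 3.

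The ratio of Dbp to Arntl, the pair on opposite limbs of the loop, spread more than either gene. It was 8.66, 3.73 and 2.47 in the ATR WT libraries, against 5.48, 9.01 and 1.91 in the ATR mD/mD libraries. The 3 hair-poor libraries lay at 5.48 or above and the 3 hair-rich libraries at 3.73 or below. On the log2 CPM scale, the difference between Dbp and Arntl was 2.10 ± 0.92 in the ATR WT group, against 2.18 ± 1.14 in the ATR mD/mD group (SD, n = 3), so the group means differed by 0.08, less than the spread within either group. The ratio of Nr1d1 to Arntl gave 23.3, 11.0 and 6.53 in the ATR WT libraries, against 13.6, 19.3 and 6.49 in the ATR mD/mD libraries, in which ATR WT 1 was highest. The ratio of Per2 to Cry1 was 1.73, 1.63 and 1.58 in the ATR WT libraries, against 2.21, 2.23 and 0.964 in the ATR mD/mD libraries. This ratio was nearly level within ATR WT and wide within ATR mD/mD.

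**Figure D3:**
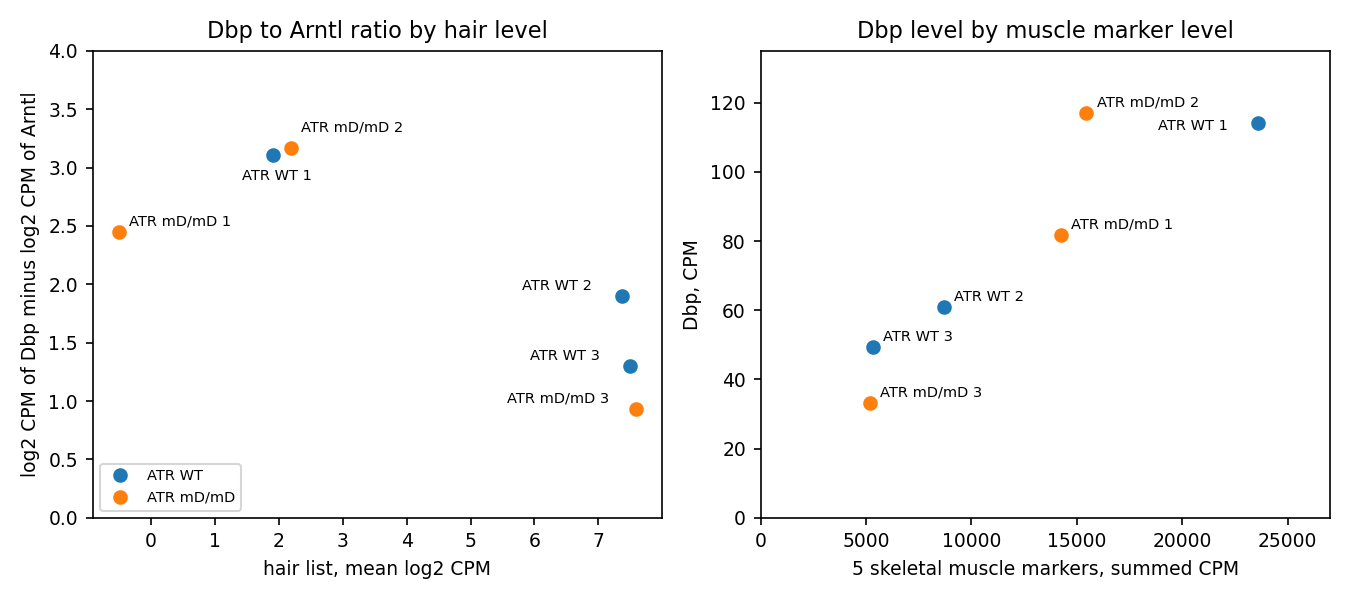
Left, the log2 CPM of Dbp less that of Arntl (y axis) against the mean log2 CPM of the hair list (x axis) in each library; right, the CPM of Dbp (y axis, from 0) against the summed CPM of 5 skeletal muscle markers (x axis, from 0). The 3 libraries with a hair level above 7 have the smallest Dbp to Arntl differences (0.93 to 1.90), and Dbp is highest in the 3 libraries with the most muscle marker RNA.

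Other RNA moved with the same libraries. The 5 skeletal muscle markers were all lower in every hair-rich library, and they summed to 23587, 8683 and 5327 CPM in the ATR WT libraries, against 14248, 15447 and 5177 CPM in the ATR mD/mD libraries. This is the same order of libraries as for Nr1d1. All 4 endothelial and all 4 T cell markers, and 2 of 4 adipocyte and 1 of 4 keratinocyte markers, were also lower in every hair-rich library, with no marker of these lists at 0, whereas 0 of 5 fibroblast and 0 of 4 macrophage markers were. The share over all genes was 17.1%, so the keratinocyte count is near the background. All 4 proliferation genes and 5 of 6 melanocyte genes were higher in every hair-rich library, beside 19.6% of all genes. The proliferation genes summed to 277, 254 and 471 CPM in the hair-rich libraries (ATR WT 2 and 3, then ATR mD/mD 3). In the hair-poor libraries they summed to between 100.5 and 125 CPM. In the 3 libraries with many Xist counts Dbp lay at 49.3 to 81.7 CPM, within the range of the other 3 libraries (33.3 to 117 CPM). The part of cell makeup, hair stage and hour of sampling in the clock gene pattern was not tested, and the last cannot be read from the labels.

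Within each hair level, few members lay on the same side of both comparisons of genotype. Per1 and Cry1 were higher in ATR mD/mD 3 than in ATR WT 2 and 3, and higher in ATR mD/mD 1 and 2 than in ATR WT 1, a pattern found in 10.7% of all genes. Nr1d1 was lower in ATR mD/mD in both comparisons, with 113 CPM against 179 and 130.3 and with 202 and 252 CPM against 306, a pattern also found in 10.7% of all genes. Per2, Per3 and Nr1d2 went opposite ways, lower in ATR mD/mD among hair-rich and higher among hair-poor libraries. Dbp, Cry2 and Clock were lower in ATR mD/mD 3 and lay on both sides of ATR WT 1 among hair-poor libraries, and for Arntl the genotypes overlapped at both hair levels. With the hair level as a covariate, the log2 fold change of Nr1d1 was -0.46 (SE 0.24, unadjusted p = 0.101, adjusted p = 0.994, edgeR), that of Dbp -0.45 (SE 0.30) and that of Per1 0.15 (SE 0.138). No member passed with that covariate, and Per2, Per3, Arntl, Cry2, Nr1d2 and Dbp changed sign.

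Of 17 clock-linked regulators outside the 10 reported here, 15 were measured, all but Rorb and Fbxl21. None passed an adjusted p under 0.05 and none an unadjusted p under 0.05 (edgeR, DESeq2 and limma-voom), and 8 had fold changes above 0 and 7 below, with a median of 0.03. By hair level, 6 were lower in every hair-rich library (Rora, Bhlhe41, Tef, Hlf, Ciart and Btrc), beside 17.1% of all genes, and 3 were higher (Nfil3, Csnk1e and Nono), a share close to the 19.6% of all genes. Tef and Hlf encode the PAR bZIP activators related to DBP. Tef measured 379, 247 and 236 CPM in the ATR WT libraries, against 409, 424 and 178 CPM in the ATR mD/mD libraries. Hlf was at 79.2, 49.8 and 47.3 CPM and at 75.8, 92.9 and 31.2 CPM, so that its libraries had the order of Dbp.

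Nfil3, whose product is a repressor at D-box sequences, ran the other way with the widest range of the regulators. It measured 13.2, 28.2 and 41.0 CPM in the ATR WT libraries, against 11.4, 10.2 and 40.8 CPM in the ATR mD/mD libraries, a 4.01-fold range. Its log2 fold change by genotype was -0.40 (SE 0.644), and it rested on single libraries, with -1.35 without ATR mD/mD 3 (unadjusted p = 0.0336, adjusted p = 0.708, edgeR) and -0.0042 without ATR WT 3. Without ATR mD/mD 3, only hair-poor libraries remain in that group, so genotype and hair level are mixed. Ciart, a repressor of the Arntl and Clock pair, measured 26.9, 10.6 and 11.3 CPM in the ATR WT libraries, against 18.4, 22.4 and 10.2 CPM in the ATR mD/mD libraries. Rora, an activator at ROR elements, had its lowest value in ATR mD/mD 3 (81.0 CPM) and its highest in ATR mD/mD 1 (167 CPM).

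The remaining regulators were steadier or followed neither order. Npas2, a substitute for Clock, lay between 3.30 and 5.26 CPM, both in the ATR mD/mD group. Arntl2, a relative of Arntl, measured 7.22, 8.79 and 9.78 CPM in the ATR WT libraries, against 12.5, 15.1 and 7.64 CPM in the ATR mD/mD libraries, with the highest fold change of the list (0.45, SE 0.285). That of Arntl2 was 0.68 without ATR mD/mD 3 (unadjusted p = 0.0161, adjusted p = 0.708, edgeR), a run with only hair-poor ATR mD/mD libraries, and 0.225 without ATR mD/mD 2. Bhlhe40, which encodes an E-box repressor, had the lowest (-0.50, SE 0.27, unadjusted p = 0.11, edgeR), with 183, 105 and 138 CPM in the ATR WT libraries, against 117, 112 and 72.2 CPM in the ATR mD/mD libraries. The fold change of Bhlhe40 was -0.74 with the hair level as a covariate (SE 0.157, unadjusted p = 0.00243, adjusted p = 0.712, edgeR), and leaving out ATR WT 1 or ATR mD/mD 3 gave -0.26 and -0.31. The related Bhlhe41 had -0.06 (SE 0.188). The kinase gene Csnk1d, whose product phosphorylates PER proteins, was the 1 regulator of 15 in which the genotypes did not overlap, at 176, 176 and 181 CPM against 169, 168 and 159 CPM, a log2 fold change of -0.10 (SE 0.114). Over all genes, 2.58% separated with ATR mD/mD lower. Its relative Csnk1e had -0.18 (SE 0.138). The ubiquitin ligase genes Btrc and Fbxw11, whose products mark PER proteins for breakdown, had 0.10 (SE 0.174) and -0.14 (SE 0.151). Timeless and Nono had 0.15 (SE 0.237) and -0.05 (SE 0.158).

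**Figure D4:**
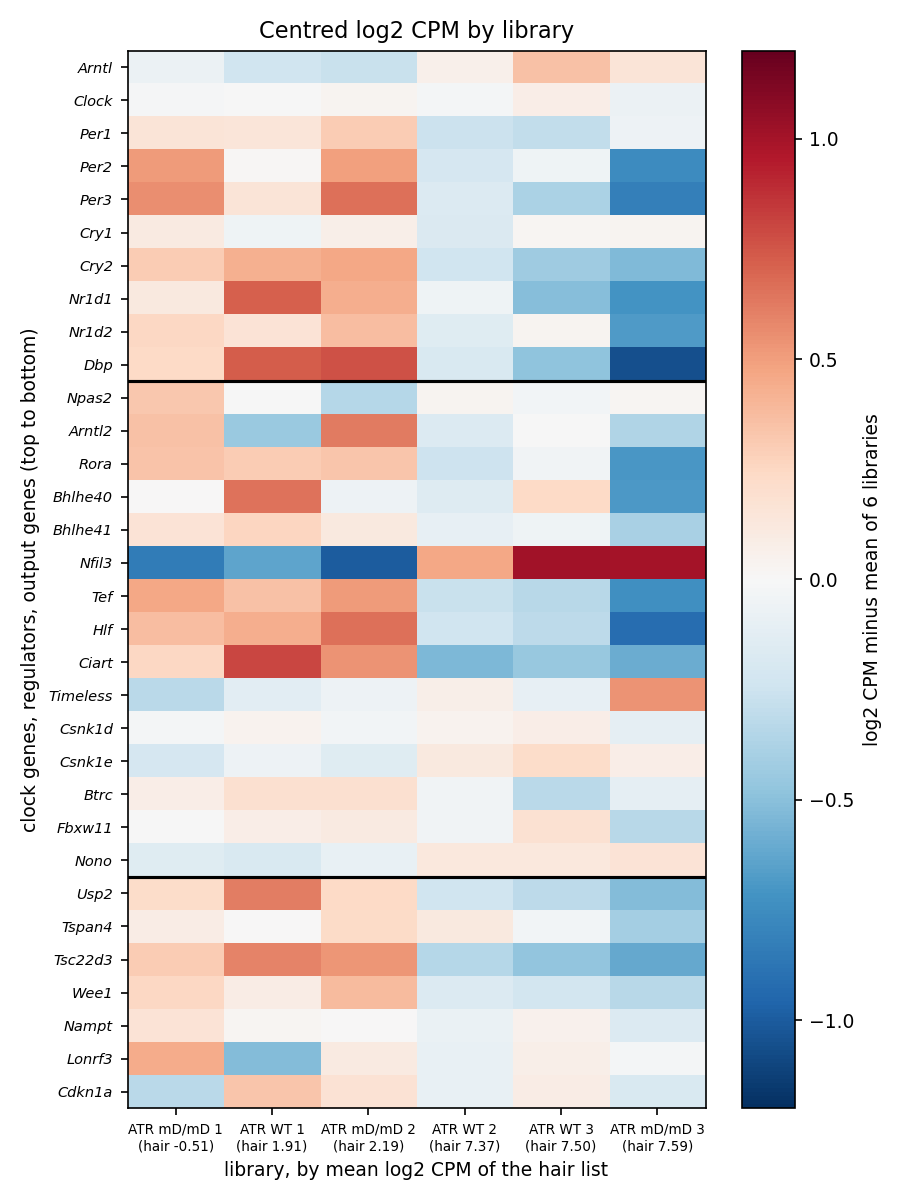
Log2 CPM of each clock gene, regulator and output gene less its mean over the 6 libraries (colour), with libraries ordered by the mean log2 CPM of the hair list (x axis). Per3, Nr1d1, Dbp, Tef, Hlf and Ciart are red in the 3 hair-poor libraries at the left and blue in the 3 hair-rich libraries at the right, Nfil3 is the reverse, and Clock and Csnk1d are close to white.

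Of the clock output genes none passed by genotype, and a part of them split by hair level. All 7 were measured, and none passed an adjusted or an unadjusted p under 0.05 (edgeR, DESeq2 and limma-voom), with 4 fold changes above 0, 3 below and a median of 0.01. Usp2, a deubiquitinase gene that cycles in many tissues, measured 95.5, 53.1 and 50.4 CPM in the ATR WT libraries, against 72.8, 73.6 and 43.7 CPM in the ATR mD/mD libraries. Tsc22d3, which is also induced by glucocorticoids, was at 516, 269 and 245 CPM and at 422, 491 and 223 CPM. Wee1, a cell cycle kinase gene driven by the Arntl and Clock pair, was at 35.7, 30.0 and 28.8 CPM and at 40.1, 43.8 and 26.8 CPM, a log2 fold change of 0.23 (SE 0.211). In these 3 of the 7 genes every hair-rich library was lower than every hair-poor one, beside 17.1% of all genes. Tspan4, Nampt, Lonrf3 and Cdkn1a overlapped by hair level and had fold changes of -0.04 (SE 0.178), 0.01 (SE 0.132), 0.34 (SE 0.235) and -0.22 (SE 0.19).

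Per1 is also known as a rapidly induced gene that responds to cAMP signals and to glucocorticoids, so lists of such genes were set beside it. Among 12 immediate early genes all had fold changes below 0, with a median of -1.35, where 6955 of all 14484 genes were below 0. At an unadjusted p under 0.05 (edgeR) 10 passed, where 1.66% of all genes did, while 0 passed the adjusted threshold. Fos, for example, measured 1085, 779 and 378 CPM in the ATR WT libraries, against 129.9, 198 and 121 CPM in the ATR mD/mD libraries. Per1 was on the other side of 0 (0.26), and the difference between Per1 and these genes was not tested. Among 8 glucocorticoid-induced genes, 5 were above 0 and 3 below, with a median of 0.04 and 0 at an unadjusted p under 0.05 (edgeR). By hair level 2 of the 8, Tsc22d3 and Pdk4 (the latter named after its values were seen), were lower in every hair-rich library, as Per1 was. Over all genes the share was 17.1%, so this count is near the background. Pdk4 measured 192, 75.1 and 90.0 CPM in the ATR WT libraries, against 140.4, 125 and 65.4 CPM in the ATR mD/mD libraries. Others had a different order: Fkbp5 measured 38.1, 60.7 and 76.4 CPM in the ATR WT libraries, against 79.5, 40.8 and 59.3 CPM in the ATR mD/mD libraries, with ATR WT 1 lowest, and Klf9 and Zbtb16 were also lowest in ATR WT 1.

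Outside the 10 members, the genes whose pattern over the 6 libraries was most like that of Dbp were not on the regulator or output lists. Likeness was measured as the root mean square difference of mean-centred log2 CPM among 12984 genes with a mean of at least 1 log2 CPM. This measure counts the size of a gene's range as well as the order of its libraries. The 10 members and symbols of the Gm or Rik kind were left out of this ranking, so no member could appear in it. The closest to Dbp were Sh3gl2 (0.08), Mbp (0.097), Nrn1 (0.123), Cldn19 (0.126) and Pm20d2 (0.127). Mbp encodes myelin basic protein and Cldn19 a tight junction protein, and Mbp measured 187, 101 and 84.9 CPM in the ATR WT libraries, against 126, 168 and 57.9 CPM in the ATR mD/mD libraries. Of the clock-linked genes looked up afterwards, Hlf was at place 41 (0.165), Tef at 191 (0.25), Ciart at 208 (0.256) and Usp2 at 404 (0.319), while Nfil3 was at place 12740 (1.468). The closest to Arntl were Dzip1l (0.012), Cdc73 (0.042), Bnip3l (0.044), Vamp7 (0.047) and Gspt1 (0.051). Npas2, the gene outside the 10 that shares the role of Clock, was at place 4639 for likeness to Arntl (0.254). Usp2 was at place 11607 for Arntl, Nfil3 at 11967, Tef at 11981, Hlf at 12217 and Ciart at 12282.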

How the data were processed

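The authors deposited raw counts of reads per gene, 1 column for each of the 6 skin libraries and not normalized, per the file headers. Per the submitters' processing notes, FastQC, TopHat2 2.0.12, edgeR and build mm10 were used. The read counter and annotation: not given in the sources used here. Beside the counts, the deposited table holds the authors' log2 fold change, average log2 CPM, p-value and adjusted p-value per gene, used here only where that table is named. The 2 rows that name no gene (4.93% to 5.72% of counts) were left out. Counts were scaled with TMM and tested with edgeR 4.0.16 (quasi-likelihood, R 4.3.3) over 14484 genes, with Benjamini-Hochberg adjustment. filterByExpr removed 0 genes, and so did the alternative filter of 1 CPM in 3 libraries. SEs are the absolute log2 fold change over the square root of F, and intervals are 95%. Log2 CPM values carry a prior count of 2. Alternatives used DESeq2 1.42.0, limma-voom 3.58.1, RLE factors, filters, a replicate block, a hair covariate and leaving out each library. Positions and exon lengths are from GENCODE M21 (mm10). The fit was tested on simulated data. Replicates differed by more than sampling noise (chi-square per degree of freedom of 55.3 or above). Members, lists and the hair ordering were chosen with earlier results of these data known. All measured clock genes, regulators and output genes of the lists are named, and some other regulators are not reported here. The genes most like Dbp and Arntl were taken by a fixed rule, and the places of Hlf, Tef, Ciart, Usp2, Nfil3 and Npas2 were looked up after seeing values. Of other lists, examples were chosen among the first 4 members, apart from Pdk4, which was named after its values were seen.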

Additional observations from a re-analysis of the deposited data

How the results depend on the processing

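None of the 10 clock genes, 15 regulators or 7 output genes passed the threshold under any alternative run (RLE factors, no filter, 1 CPM in 3 libraries, DESeq2, limma-voom, a block by replicate number, the hair level as a covariate, and each library left out). Over all genes the count of calls was 7, with 39 in DESeq2, and ran from 4 to 10 with 1 library left out. With all 6 libraries the filters removed 0 genes. The runs with no filter and with 1 CPM in 3 libraries therefore repeated the main fit and could not differ from it. The directions were less stable: of 130 fold changes of clock genes under these alternatives, those repeats included, 21 changed sign, and the cause was not tested. In limma-voom these were Nr1d2 (-0.0378) and Dbp (-0.038), together with the regulators Npas2 (-0.0015) and Rora (-0.0235). The replicate block left 6 calls over all genes and changed the sign of Nr1d2 (-0.0307), Dbp (-0.04) and Rora (-0.0154). The deviations of same-numbered libraries from their group means correlated at 0.633, -0.509 and 0.573 across genes. Not every library correlated best with its own number. Over all pairs of an ATR WT and an ATR mD/mD library, the correlation was above 0 where both were hair-rich or both hair-poor. It was below 0 in all other pairs. These correlations therefore cannot show whether replicate numbers pair the samples. With the hair covariate the sign changed for Per2 (-0.111), Per3 (-0.0779), Arntl (0.0167), Cry2 (-0.135), Nr1d2 (-0.254) and Dbp (-0.447). It also changed for the regulators Npas2 (-0.0145), Rora (-0.302), Nfil3 (0.0817), Tef (-0.188), Hlf (-0.28), Ciart (-0.274) and Nono (0.0674), and for the output genes Tsc22d3 (-0.213) and Nampt (-0.0676). With 1 library left out, the clock genes that changed sign ranged from -0.381 to 0.303 (Nr1d1), -0.161 to 0.292 (Nr1d2), -0.377 to 0.509 (Dbp), -0.249 to 0.0261 (Arntl) and -0.0177 to 0.487 (Cry2). The regulators that did so ranged from -0.153 to 0.0987 (Bhlhe41), -0.116 to 0.311 (Rora), -0.183 to 0.648 (Ciart), -0.151 to 0.0183 (Nono), -0.0336 to 0.251 (Btrc), -0.145 to 0.186 (Npas2), -0.135 to 0.522 (Hlf) and -0.14 to 0.321 (Timeless). The output genes ranged from -0.244 to 0.308 (Usp2), -0.167 to 0.131 (Tspan4), -0.0916 to 0.573 (Tsc22d3) and -0.0781 to 0.0863 (Nampt). Without ATR mD/mD 3, an unadjusted p under 0.05 (edgeR) was reached by Per2, Per3, Arntl2, Nfil3 and Wee1 (0.415), without ATR WT 1 by Per1 (0.435), and with the hair covariate by Bhlhe40, all with an adjusted p of 0.708 or above. Leaving out ATR mD/mD 3 keeps only hair-poor libraries in ATR mD/mD, and leaving out ATR WT 1 keeps only hair-rich libraries in ATR WT. Genotype and hair level are therefore mixed in those runs. The group difference of the log2 Dbp to Arntl ratio was 0.08 and ran from -0.411 to 0.705 with 1 library left out. The lowest count of a clock gene in a library was 477.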
